A study of Mus musculus with 16 samples.

Results

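Myosin light chains are the small subunits that wrap the neck of a class II myosin heavy chain, and 10 mouse genes of this family, Myl1, Myl2, Myl3, Myl4, Myl6, Myl6b, Myl7, Myl9, Myl12a and Mylpf, were followed here among the 24562 entries of the count table. The members were chosen by gene symbol, and the transcript row with the highest total count was kept for each gene. The choice was made with earlier results of these data known, in which Myl7, Myl4 and Myl1 were among the leading genes of the comparison of cre with wild-type aortas. Values of that comparison are therefore given as a description, without a test. The comparison of the genotypes in B1b cells is tested. That of the tissues is tested for members with enough counts in B1b cells, and the others are described.

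Every mouse was of the ApoE-/- strain, which is prone to atherosclerosis, so the controls carry that deficiency too. The libraries came from 5 cre aortas, 5 wild-type aortas, 3 cre samples of B1b cells and 3 wild-type samples of B1b cells. The series describes the cre animals as lacking CD40, a costimulatory receptor, in B cells, so in the aorta the deletion concerns only the B cells within the tissue. The sources used here do not give the promoter that drove Cre, nor the age or treatment of the animals. B1b cells are innate-like B cells, here sorted from the peritoneal cavity as CD19hi, B220lo, IgMhi and CD5lo. The labels do not tie samples to individual mice, so a p-value reflects only how far these samples vary, which may be technical.

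Each heavy chain carries an essential light chain, which stiffens the neck, and a regulatory light chain, whose phosphorylation by myosin light chain kinase switches on contraction in smooth muscle and the assembly of nonmuscle myosin. Muscles use different pairs. Atrial heart muscle uses Myl4 as the essential and Myl7 as the regulatory chain, ventricular muscle uses Myl3 and Myl2, and fast skeletal muscle uses Myl1 and Mylpf. Smooth muscle of the vessel wall uses Myl6 with Myl9, and nonmuscle cells such as lymphocytes use Myl6 with Myl12a and its near-identical neighbour Myl12b. Myl6b is an essential chain known from slow skeletal muscle and nonmuscle cells.

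Libraries held 6815829 to 9911226 counts in B1b cells and 1645926 to 7300894 in aortas, over 1 row for each gene. Replicate 2 of the cre aortas and replicate 5 of the wild-type aortas were under 2000000 counts, so their low counts are the least precise. All 11 smooth muscle markers were present in both groups of aortas, with a summed level of 10560 to 26470 CPM in cre and 15300 to 20800 CPM in wild type (CPM, counts scaled to library size with TMM factors). In B1b cells that sum was 14.4 to 19.0 CPM in cre and 13.7 to 24.2 CPM in wild type, and all 10 B cell markers were present, with sums of 9562 to 9900 CPM in cre and 9933 to 10400 CPM in wild type. Cd40 itself ranged from 1.78 to 8.64 CPM in cre and from 4.76 to 11.97 CPM in wild-type aortas. In B1b cells it ranged from 29.0 to 38.6 CPM in cre and from 33.9 to 38.2 CPM in wild type, so in both tissues the Cd40 level overlapped between the genotypes. Which exons were deleted is not stated, so these counts do not check the genotype labels.

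The level of the light chains was compared between wild-type aortas and wild-type B1b cells. Of the 10 members, 9 were higher in wild-type aortas than in wild-type B1b cells at an adjusted p under 0.05 (edgeR quasi-likelihood), and 0 were lower. Over all genes tested, 40.4% were higher and 35.4% were lower in the aorta. Myl1, Myl2, Myl3, Myl4, Myl6b, Myl7 and Myl9 were too low for the filter in B1b cells and entered this comparison through the aortas, so the filter fixed their direction and the count of 9 is no support. Among the 3 members with enough counts in B1b cells, Myl6 and Myl12a were higher in aortas and Mylpf was not called. In such whole-tissue libraries, fewer cells of a type and less RNA per cell cannot be told apart, nor can the tissue be told apart from the way the samples were prepared.

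**Figure D1:**
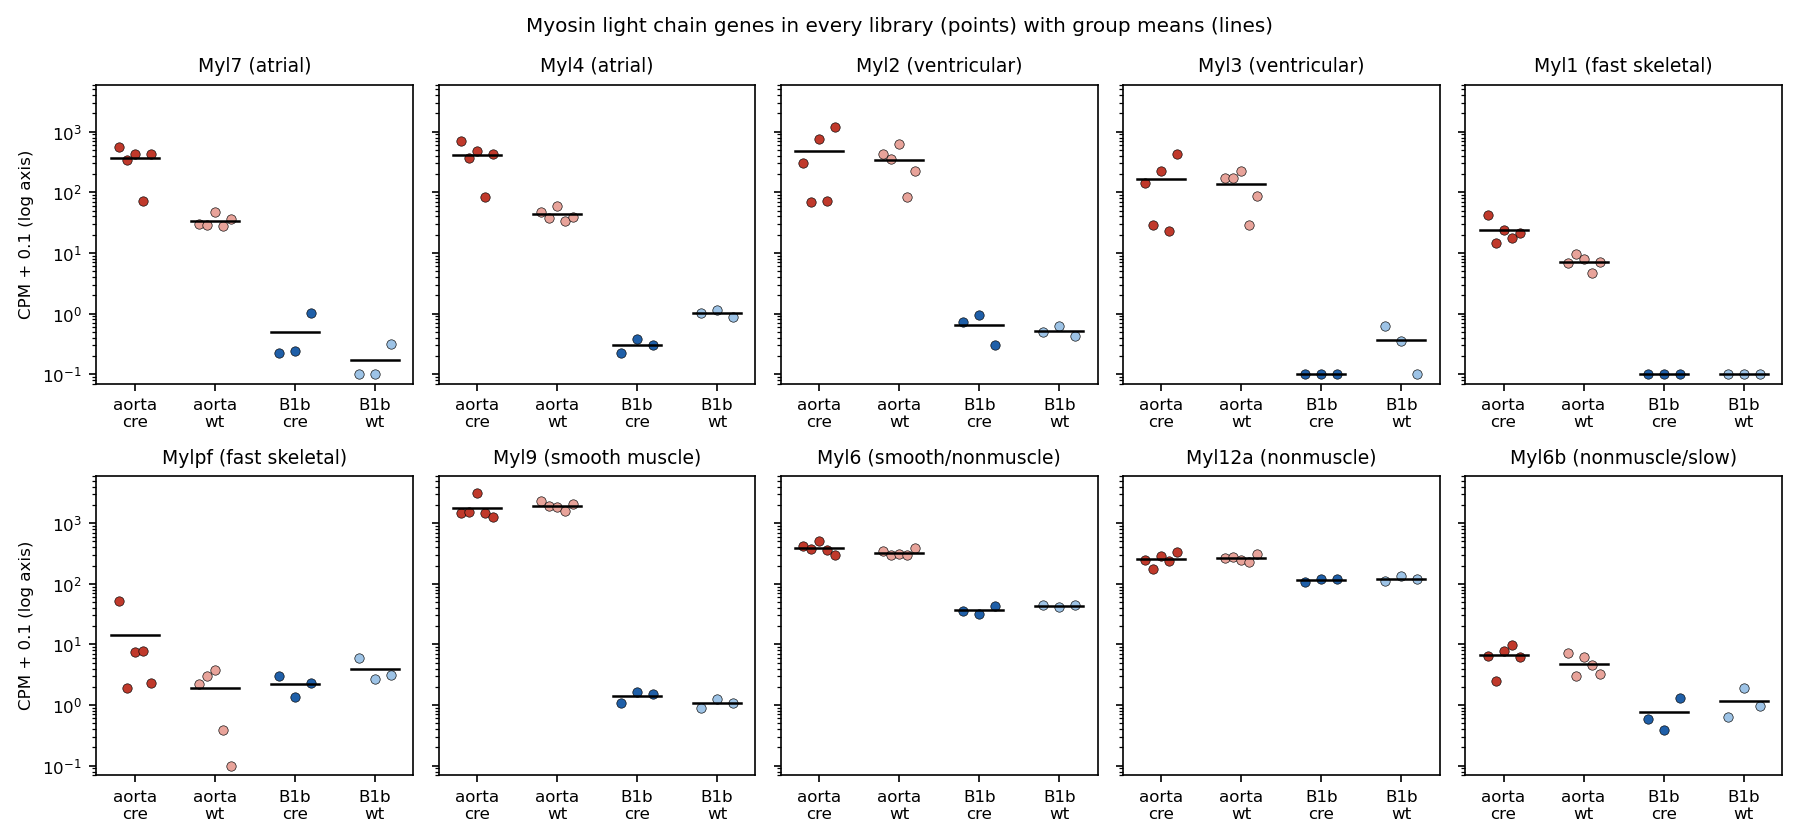
Level of each light chain gene in every library, as CPM plus 0.1 on a log axis, with a point for each library and a line at the group mean. Myl9, Myl2, Myl3, Myl7 and Myl4 sit far higher in aortas than in B1b cells, and Myl7, Myl4 and Myl1 lie higher in all cre aortas than in all wild-type aortas.

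The smooth muscle chain Myl9 (chr2:156775408-156781657, plus strand, GRCm38) had the largest fitted fold change of the members between the wild-type tissues. It stood at 1484, 1537, 3160, 1493 and 1256 CPM in the 5 cre aortas and at 2290, 1956, 1831, 1564 and 2098 CPM in the 5 wild-type aortas. In B1b cells it was at 0.993, 1.55 and 1.43 CPM in cre and at 0.785, 1.15 and 0.984 CPM in wild type, which is 8 to 14 and 6 to 9 counts a library. Wild-type aorta exceeded wild-type B1b cells by 10.91 on the log2 scale (SE 0.28, edgeR), a description since the filter fixed the direction. In the cre libraries the value was 10.3 for Myl9 and 10.8 for Myl4, the second from 5 counts in B1b cells. Between the genotypes, the aortas overlapped, with a log2 fold change of -0.13 (SE 0.23, 95% interval from -0.62 to 0.36). Replicate 3 of the cre aortas was high, and without it the value was -0.42.

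Its partner Myl6, the essential chain of smooth and nonmuscle myosin (chr10:128490859-128493886, minus strand), was present in every library. Levels were 419, 381, 509.7, 355 and 295 CPM in cre aortas and 346, 304, 308, 297 and 385 CPM in wild-type aortas. In B1b cells they were 35.5, 31.1 and 43.5 CPM in cre and 44.9, 42.1 and 43.9 CPM in wild type. The aorta exceeded B1b cells by 2.88 on the log2 scale in wild type (SE 0.14, adjusted p = 2e-09, edgeR). The size depended on the transcript row, at 2.68 with the rows summed and 2.43 with the lowest-total row. Cre and wild type overlapped in both tissues, with a log2 fold change of 0.26 in aortas (SE 0.16, interval from -0.07 to 0.59).

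The nonmuscle regulatory chain Myl12a (chr17:70993793-71002533, minus strand) varied least between the tissues among the members that were called. It averaged 256 ± 61.8 CPM in cre aortas and 266 ± 30.9 CPM in wild-type aortas (SD, n = 5 each), and 117 ± 8.40 CPM in cre and 121 ± 10.1 CPM in wild-type B1b cells (SD, n = 3 each). Wild-type aorta exceeded wild-type B1b cells by 1.10 on the log2 scale (SE 0.14, adjusted p = 9.07e-06, edgeR). Its neighbour Myl12b, which is not a member, went the other way, at 93.0 ± 13.8 CPM in wild-type aortas and 188 ± 2.99 CPM in wild-type B1b cells, a log2 fold change of -1.04 (SE 0.13, adjusted p = 1.06e-05, edgeR). Per kb of transcript, Myl12a was 2.03 to 2.89 times Myl12b in cre aortas and 2.63 to 4.46 times in wild-type aortas. The ratio was 0.598 to 0.781 in cre and 0.657 to 0.792 in wild-type B1b cells, so the tissues did not overlap. The coding sequences of this pair are so alike that how reads were divided between them is uncertain, because no source used here names the counting tool.

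Myl6b (chr10:128494157-128498685, minus strand) was low everywhere. It ranged from 2.37 to 9.84 CPM in cre and from 2.89 to 7.18 CPM in wild-type aortas, and from 0.282 to 1.22 CPM in cre and 0.523 to 1.79 CPM in wild-type B1b cells. The wild-type tissues differed by 2.14 on the log2 scale (SE 0.51, edgeR), a description since the filter fixed the direction. The genotypes overlapped in both tissues.

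The striated muscle chains were near 0 in B1b cells. Myl1 had 0 counts in all 6 B1b libraries, and wild-type aortas were at least 58.1-fold higher when the level in B1b cells was set at a floor of 3 counts over the 3 wild-type libraries. Myl7 had 1, 1 and 9 counts in cre and 0, 0 and 2 in wild-type B1b cells. Its level in wild-type aortas was 417 times that of wild-type B1b cells, with a 95% interval from 115 to 3441 that covers counting error only. Myl3 had 0 counts in the 3 cre and 4, 2 and 0 in the 3 wild-type B1b libraries, and Myl2 had 2 to 6 counts in cre and 3 to 4 in wild type. For wild-type aortas against wild-type B1b cells, the log2 difference by edgeR was 9.63 for Myl2 (SE 0.96) and 9.01 for Myl3 (SE 1.11). It was 5.55 for Myl4 (SE 0.29). The filter fixed these directions, so the values are a description. The Myl3 value rests on 6 counts in wild-type B1b cells. It was 9.94 without wild-type B1b replicate 1 and 8.37 without replicate 3, and in limma-voom its adjusted p was 0.0597, which missed the threshold.

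Per kb of transcript, the order in wild-type aortas began with Myl9 at 1727 ± 243, followed by Myl2 at 519.7 ± 316 and Myl6 at 474 ± 53.6 CPM per kb (SD, n = 5). Myl3 at 148 ± 85.0 and Myl12a at 137 ± 15.9 came next, then Myl7 at 57.4 ± 13.8 and Myl4 at 49.5 ± 11.6 CPM per kb. Myl1 at 6.54 ± 1.61, Myl6b at 4.62 ± 1.79 and Mylpf at 2.34 ± 2.09 CPM per kb came last. Within the pairs Myl2 and Myl6, Myl3 and Myl12a, and Myl7 and Myl4 the means differed by less than the SD of the more variable gene. In cre aortas Myl7 stood at 620.5 ± 307 and Myl4 at 468.5 ± 255 CPM per kb (SD, n = 5), beside Myl2 at 717 ± 727 and Myl6 at 567 ± 116.

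Of the 10 members, Myl12a and Myl6 had the highest levels in B1b cells. Myl12a and Myl6 stood at 60.3 ± 4.34 and 53.1 ± 9.05 CPM per kb in cre, and at 62.5 ± 5.20 and 63.1 ± 2.04 in wild type (SD, n = 3 each). Myl12b, which is not a member, was above both, at 86.2 ± 6.03 CPM per kb in cre and 87.8 ± 1.40 in wild type. As shares of the summed level of the 10 members per kb, Myl12a held 50.5% and Myl6 44.2% in cre B1b cells, and 46.5% and 46.9% in wild-type B1b cells. With Myl12b in the sum, an alternative chosen after seeing the data, Myl12b held 41.9%, Myl12a 29.3% and Myl6 25.7% in cre B1b cells, and 39.5%, 28.1% and 28.4% in wild-type B1b cells. In aortas the largest share of the 10 members was that of Myl9, with 38.8% ± 13.7 in cre and 56.0% ± 6.72 in wild type (SD, n = 5 each). Myl7 held 14.0% ± 6.15 in cre and 1.86% ± 0.368 in wild type, and Myl4 10.6% ± 5.19 in cre and 1.59% ± 0.233 in wild type. The summed level was 4315 ± 1604 CPM per kb in cre and 3127 ± 575 in wild-type aortas, so a share can fall without a fall in the gene's own level.

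**Figure D2:**
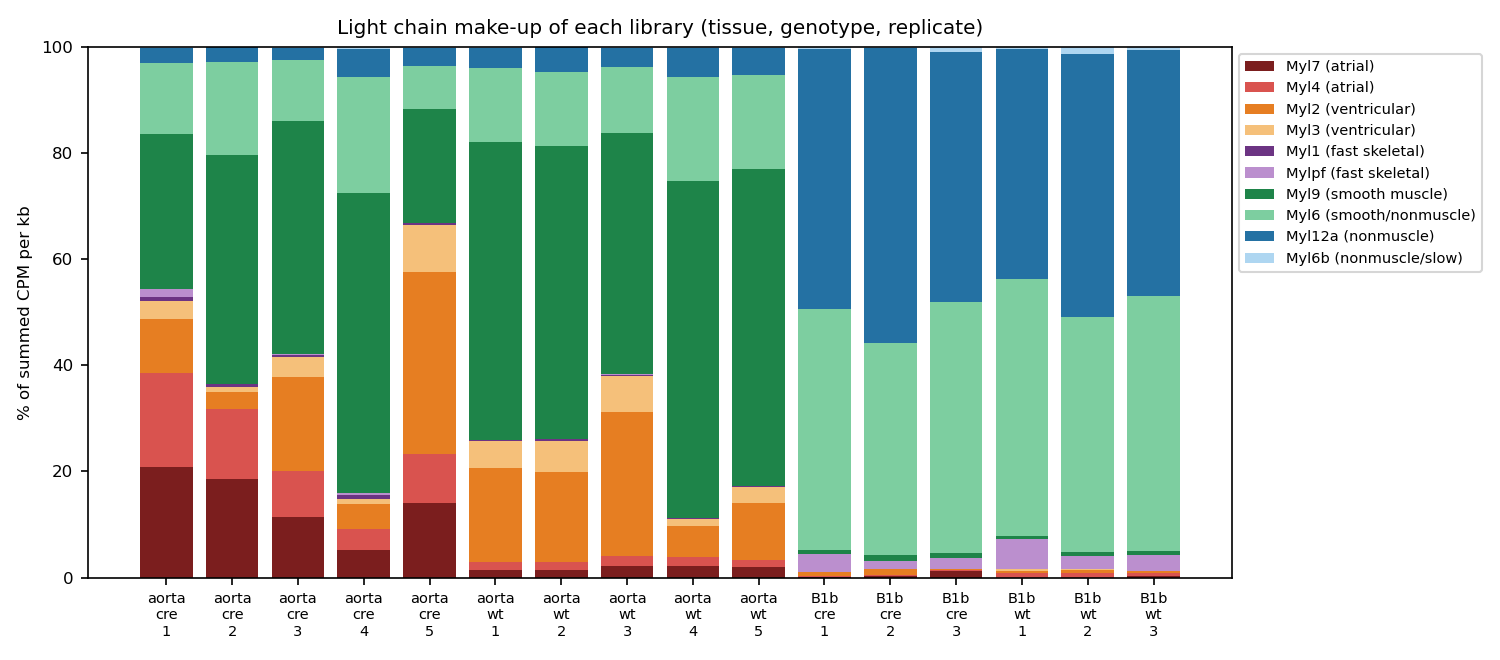
Share of each light chain gene in the summed CPM per kb of the 10 members, one bar for each library. Smooth muscle Myl9 leads in wild-type aortas, the atrial pair Myl7 and Myl4 takes a larger share in cre aortas, and Myl12a and Myl6 make up nearly all of the bar in B1b cells, where Myl12b is not in the sum.

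The gene for the atrial regulatory chain, Myl7 (chr11:5896637-5898782, minus strand), differed most of the members between cre and wild-type aortas. It stood at 553, 345, 432, 70.9 and 429.8 CPM in the 5 cre aortas, against 30.2, 28.2, 47.0, 27.5 and 36.5 CPM in the 5 wild-type aortas. All cre aortas were above all wild-type aortas, and replicate 4 was the lowest of the cre group. The mean was 366 ± 181 CPM in cre and 33.9 ± 8.15 CPM in wild type (SD, n = 5 each). The log2 difference was 3.44 (SE 0.47, interval from 2.39 to 4.48).

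The atrial essential chain gene Myl4 (chr11:104546017-104587215, plus strand) varied with Myl7, and the 5 cre aortas ranked in the same order for both genes. It stood at 706, 368, 480.2, 83.7 and 422 CPM in the 5 cre aortas, against 46.4, 38.2, 59.8, 33.9 and 39.2 CPM in the 5 wild-type aortas. The log2 fold change was 3.24 (SE 0.47, interval from 2.20 to 4.28), again with no overlap between the groups. The ratio of Myl7 to Myl4 per kb stayed between 1.17 and 1.52 in cre and between 0.968 and 1.39 in wild-type aortas, so the pair differed by similar amounts. Without the low cre replicate 4, the log2 fold change was 3.71 for Myl7 and 3.51 for Myl4. Without the 2 aortas under 2000000 counts it was 3.46 for Myl7 and 3.23 for Myl4.

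Myl1, the fast skeletal essential chain gene (chr1:66924295-66947932, minus strand), was the third with no overlap. It stood at 41.3, 14.2, 24.0, 17.4 and 21.5 CPM in cre aortas, against 6.70, 9.33, 7.91, 4.58 and 6.88 CPM in wild-type aortas. The log2 fold change was 1.75 (SE 0.30, interval from 1.12 to 2.39). It was 1.45 without cre replicate 1 and 1.85 without the 2 aortas under 2000000 counts. Groups did not overlap in 3 of the 10 members, each higher in cre, and in 0 members lower in cre. Over all genes tested in the aorta, 1.65% did not overlap and were higher in cre, and 1.22% were lower. At an adjusted p under 0.05, 0 of 10 members and 0.015% of all genes were called by edgeR. Since this comparison led to the choice of the members, nothing is read from these counts.

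**Figure D3:**
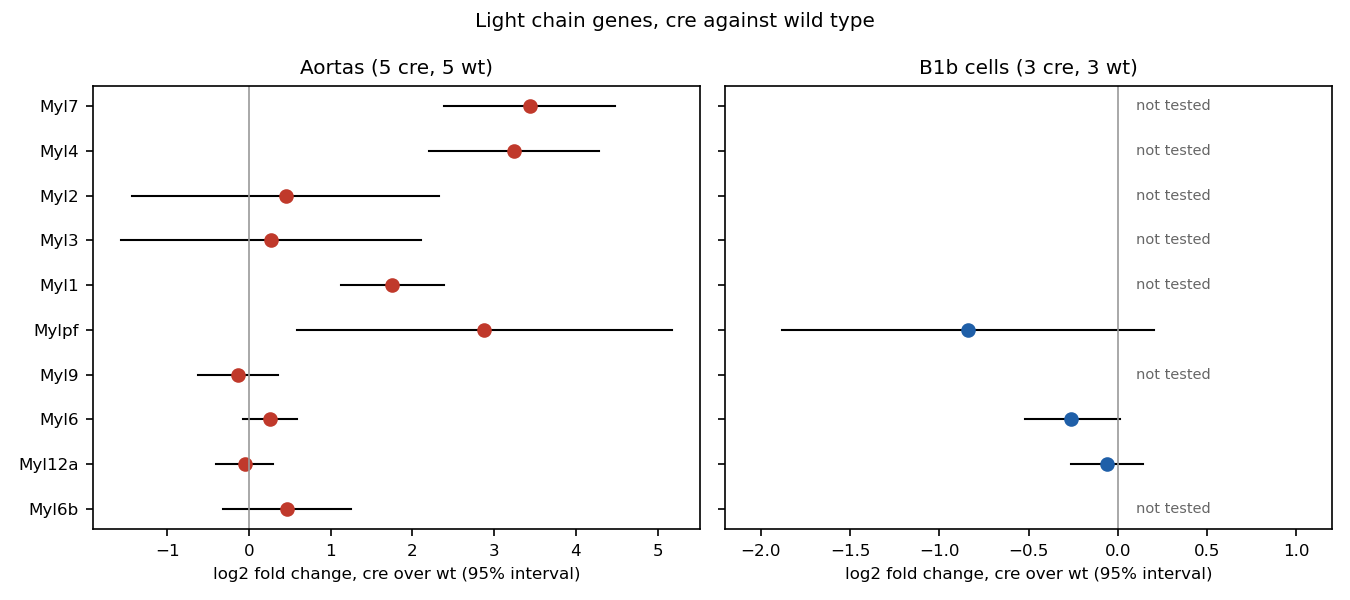
Log2 fold change, cre over wild type, with 95% intervals for each light chain gene in aortas (left) and B1b cells (right). In aortas Myl7, Myl4 and Myl1 lie at 3.44, 3.24 and 1.75 and Myl2 and Myl3 at 0.45 and 0.27, a description of the comparison that led to the choice of the members. In B1b cells 3 members had enough counts to be fitted.

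The fast skeletal regulatory chain gene Mylpf (chr7:127208848-127214288, plus strand) stood at 52.1, 1.78, 7.44, 7.65 and 2.20 CPM in cre aortas, against 2.15, 2.89, 3.64, 0.286 and 0 CPM in wild-type aortas. The groups overlapped, and replicate 1 of the cre aortas was far above the others. The log2 fold change was 2.88 (SE 1.03, interval from 0.59 to 5.18) with that library and 1.34 without it. The same library had the highest summed level of the 14 fast skeletal markers, 1218 CPM, against 109 to 438 CPM in the other cre aortas and 45.8 to 242 CPM in wild-type aortas. Myh4, a fast skeletal heavy chain gene, was at 154 CPM there and at 0.943 to 13.9 CPM in the other cre aortas. The part of skeletal muscle RNA in the Mylpf value was not tested.

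The ventricular chains did not separate the genotypes. Myl2 (chr5:122092724-122113473, plus strand) stood at 305, 68.1, 754, 72.0 and 1176 CPM in cre aortas, against 424, 353, 638, 84.4 and 221 CPM in wild-type aortas. Myl3 (chr9:110763678-110769802, plus strand) stood at 140.4, 29.0, 223, 22.7 and 428 CPM in cre aortas, against 175, 175.1, 228, 28.3 and 87.8 CPM in wild-type aortas. Both genes varied widely within each genotype, and the groups overlapped. The log2 fold change was 0.45 for Myl2 (SE 0.83, interval from -1.43 to 2.33) and 0.27 for Myl3 (SE 0.82, interval from -1.57 to 2.11). Without cre replicate 5, the highest library, the values were -0.21 and -0.42.

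Within a library, the ratio of the atrial to the ventricular regulatory chain, Myl7 over Myl2 per kb, does not depend on how libraries are scaled. It was 2.04, 5.69, 0.642, 1.11 and 0.410 in cre aortas, against 0.0797, 0.0897, 0.0827, 0.365 and 0.186 in wild-type aortas, with no overlap. The ratio of the essential chains, Myl4 over Myl3 per kb, was 5.36, 13.5, 2.29, 3.93 and 1.05 in cre aortas, against 0.283, 0.233, 0.279, 1.28 and 0.475 in wild-type aortas. These overlapped at 1 library, since wild-type replicate 4 was above cre replicate 5. Myl2 over Myl3 per kb ran from 3.07 to 4.78 in cre and from 2.85 to 4.22 in wild-type aortas. Since Myl7 and Myl4 were among the leading genes of this comparison when the members were chosen, the ratios are a description.

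**Figure D4:**
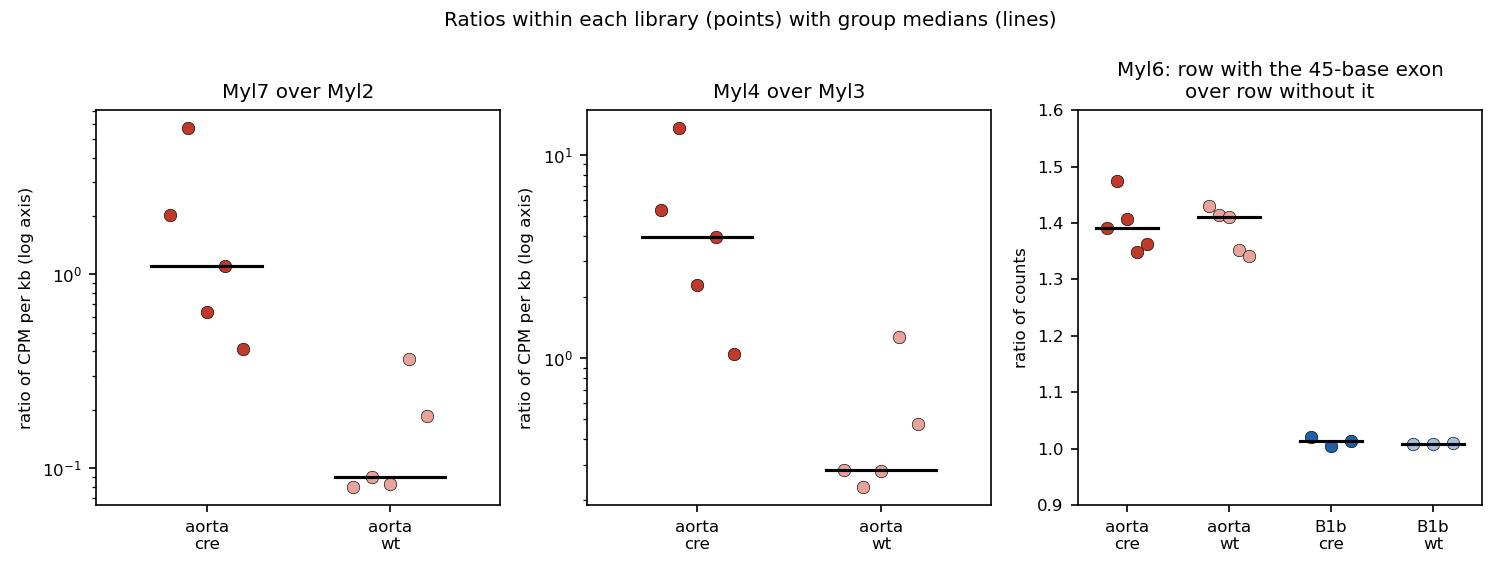
Ratios within each library, with a point for each library and a line at the group median. Left and middle, Myl7 over Myl2 and Myl4 over Myl3 per kb in aortas (log axes) were higher in cre aortas, with 1 overlap for Myl4 over Myl3. These aortic ratios describe the comparison that led to the choice of the members. Right, counts of the Myl6 row with the 45-base exon over the row without it were 1.34 to 1.48 in aortas and 1.005 to 1.02 in B1b cells.

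Other heart muscle genes were set beside these values. The summed level of the 6 atrial markers ranged from 181 to 2230 CPM in cre and from 67.7 to 243 CPM in wild-type aortas. Of this list, Bmp10 was at 4.65 CPM in cre replicate 1 and at 0 in every other aorta. Of the 5 atrial markers tested, 0 were called (edgeR), and the median log2 fold change was 3.34. Groups did not overlap in 3, Sln, Mybphl and Sbk3, each higher in cre, and in 0 lower in cre. Sln ranged from 18.45 to 157 CPM in cre and from 2.117 to 11.86 CPM in wild type. Nppa, the highest of the list in every cre aorta, overlapped, at 79.55 to 1851 CPM in cre and 10.77 to 183.3 CPM in wild type. Gja5 also overlapped, at 27.2 to 121 CPM in cre and 40.5 to 57.3 CPM in wild type. The 4 ventricular markers summed to 42.6 to 143 CPM in cre and to 48.4 to 208 CPM in wild type. Hey2 alone ranged from 18.4 to 48.0 CPM in cre and from 36.3 to 69.3 CPM in wild type, a large part of some of these sums. The 12 markers shared by both chambers summed to 797 to 7286 CPM in cre and to 867 to 4324 CPM in wild type. The lowest values of the atrial and the shared list in cre were those of replicate 4, the library with the lowest Myl7 and Myl4. The 6 adipocyte markers summed to 1586 to 5702 CPM in cre and to 869 to 4739 CPM in wild-type aortas. The part of heart muscle or fat RNA in the light chain values was not tested.

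By Pearson correlation of log2 CPM over the 10 aortas, a description across libraries that share their genotype groups, Myl7 was most like Myl4 (r = 0.996), then Stard10 (0.966), Sln (0.966), Mybphl (0.962) and Scd4 (0.944). Sln encodes a small inhibitor of the calcium pump in atrial muscle. Myl2 was most like Myl3 (r = 0.987), then Adprhl1 (0.981), Myh7b (0.977), Pln (0.940) and Nrap (0.933). Pln encodes phospholamban, the calcium pump inhibitor of heart muscle. Myl9 was most like Hyal1 (r = 0.959), Csrp1 (0.956), Optc (0.952) and the smooth muscle genes Cnn1 (0.935) and Tagln (0.926). Mylpf was most like Psmb3 (r = 0.955), Lmf1 (0.951), Ecd (0.916), the fast fibre actinin gene Actn3 (0.915) and Tstd2 (0.912), from counts that were low in most aortas. Between Myl7 and Myl2 the correlation was 0.23. For Myl1 the correlation was 0.90 with Myl4, 0.89 with Myl7 and 0.81 with Mylpf.

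The genotypes were tested on the members in B1b cells. There 3 of the 10 members passed the filter on low counts, and 0 of these 3 were called between cre and wild type, where 0.707% of all genes were called (edgeR). Myl6 differed by -0.26 on the log2 scale (SE 0.13, interval from -0.52 to 0.01, adjusted p = 0.400), with replicate 3 of cre inside the wild-type range. Myl12a differed by -0.06 (SE 0.09, interval from -0.26 to 0.14, adjusted p = 0.848). Mylpf stood at 2.86, 1.27 and 2.25 CPM in cre B1b cells, against 5.76, 2.56 and 3.06 CPM in wild-type B1b cells. Its log2 fold change was -0.84 (SE 0.50, interval from -1.88 to 0.20, adjusted p = 0.495), and without wild-type replicate 1 it was -0.40. The 7 macrophage markers summed to 458 to 471 CPM in cre and to 254 to 389 CPM in wild-type B1b cells, with no overlap. Of the 6 tested, 2 did not overlap, both higher in cre. Lyz2 ranged from 191 to 233 CPM in cre and from 55.6 to 142 CPM in wild type. Itgam overlapped, at 183 to 207 CPM in cre and 152 to 191 CPM in wild type, and so did Adgre1. The part of macrophage RNA in the light chain values was not tested. The groups of Myl6, Myl12a and Mylpf overlapped. Over all genes tested 9.89% did not overlap and were higher in cre, and 7.48% were lower.

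Among members too low for the test, Myl4 had 1, 2 and 2 counts in cre B1b cells, against 7, 8 and 7 counts in wild-type B1b cells. The groups did not overlap. With no filter on low counts the log2 fold change was -2.07 (edgeR adjusted p = 0.570), so at this depth the difference was not called. Mylpf was the only member that was not called between the tissues, at a log2 fold change of -1.0 for wild-type aorta over wild-type B1b cells (SE 0.68, interval from -2.47 to 0.48, adjusted p = 0.196, edgeR). Its end lies against that of Septin1, which is transcribed from the opposite strand and stood at 273 to 279 CPM in cre and 266 to 285 CPM in wild-type B1b cells, but at 2.94 to 12.4 CPM in cre and 5.87 to 10.3 CPM in wild-type aortas. No source used here says whether counting used strand, so reads of the pair cannot be told apart.

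Myl6 has transcript rows that differ in the last coding exon, which splicing includes or skips, giving forms known from smooth muscle and nonmuscle cells. The 45-base exon lies at chr10:128491720-128491764 (GRCm38, minus strand). The 2 ends of the coding sequence are shown because the ratio of these rows separated the tissues, with the stop codon in capitals, from chr10:128491736-128491764 and chr10:128491005-128491033.
Myl6 with the exon: catttgtgaggcatatcctgtcggggTGA
Myl6 without the exon: agcttgtccggatggtgctgaatggcTGA
The row with the exon had 1.35 to 1.48 times the counts of the row without it in cre aortas and 1.34 to 1.43 times in wild-type aortas. In B1b cells the ratio was 1.005 to 1.021 in cre and 1.009 to 1.010 in wild type. The aortas and B1b cells did not overlap and the genotypes did. This pattern was noticed after the values were seen and was not tested. The rows share their other exons and so most of their reads, so the ratio is not a measure of exon inclusion.

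Promoter windows of the members were taken from RefSeq (GRCm38.p6), 250 bases before to 50 after a transcription start. A CArG box, the binding motif of serum response factor (searched by name on both strands), was found in 4 of the 10 members, Myl7, Myl3, Myl9 and Myl6, in 4 of 12 windows. Of all 32851 windows, 1.63% held one. No member held a MEF2 site, against 3.19% of all windows. The E-box CANNTG was in 9 members, against 72.3% of all windows, GATA in 6, against 57.9%, and TATAAA in 2, against 13.6%. The windows of Myl7, Myl4, Myl9 and Myl3 are shown, since Myl7 and Myl4 varied together without sharing the CArG box, which is in capitals where found. Their positions are chr11:5898733-5899032 (minus strand), chr11:104550413-104550712 (plus), chr2:156775214-156775513 (plus) and chr9:110763428-110763727 (plus).
Myl7: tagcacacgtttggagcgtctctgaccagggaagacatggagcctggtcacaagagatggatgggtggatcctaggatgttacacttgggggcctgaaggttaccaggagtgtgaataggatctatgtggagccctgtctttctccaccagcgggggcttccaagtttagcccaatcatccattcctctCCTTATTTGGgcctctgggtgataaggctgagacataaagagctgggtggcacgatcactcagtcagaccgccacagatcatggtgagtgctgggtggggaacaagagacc
Myl4: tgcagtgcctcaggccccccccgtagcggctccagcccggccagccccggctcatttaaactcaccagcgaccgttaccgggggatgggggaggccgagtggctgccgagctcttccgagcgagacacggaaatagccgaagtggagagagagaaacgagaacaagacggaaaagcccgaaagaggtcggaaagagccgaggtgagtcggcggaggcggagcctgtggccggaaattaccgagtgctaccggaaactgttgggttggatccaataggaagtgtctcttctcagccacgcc
Myl9: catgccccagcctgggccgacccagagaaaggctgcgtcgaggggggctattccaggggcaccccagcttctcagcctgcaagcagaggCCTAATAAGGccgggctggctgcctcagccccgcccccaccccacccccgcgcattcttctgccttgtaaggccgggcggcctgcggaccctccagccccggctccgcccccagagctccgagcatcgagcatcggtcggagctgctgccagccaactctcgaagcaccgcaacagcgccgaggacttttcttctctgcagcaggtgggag
Myl3: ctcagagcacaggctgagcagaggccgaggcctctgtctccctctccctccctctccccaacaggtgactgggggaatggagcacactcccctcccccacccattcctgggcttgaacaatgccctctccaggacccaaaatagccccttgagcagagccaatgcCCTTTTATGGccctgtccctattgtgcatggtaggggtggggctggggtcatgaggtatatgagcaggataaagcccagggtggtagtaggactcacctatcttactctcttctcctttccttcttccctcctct
The box started 61 bases before the start in Myl7, 161 in Myl9 and 85 in Myl3. In Myl6, not shown, it lay in the window chr10:128492960-128493259 and not in that at chr10:128493837-128494136. The only Myl4 window lies inside the gene span, chr11:104546017-104587215. Which start is used in these libraries was not tested. A match describes these letters only, and no binding was measured.

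Genes that act on the light chains were counted from a list of 17 that holds the kinases, the myosin phosphatase and their upstream controls. In B1b cells 13 were tested, of which 1 rose and 0 fell, where 0.707% of all genes were called in either direction (edgeR). The riser was Ppp1cb, the catalytic subunit of myosin phosphatase, at 264 CPM in cre and 190.4 CPM in wild type, a log2 fold change of 0.46 (SE 0.08, adjusted p = 0.00637, edgeR). In one fit over all 4 groups 0 genes of the table were called, Ppp1cb included, and the macrophage sums given above differ in the same libraries. Rock2 stood at 0.24 (SE 0.08) and did not pass. In aortas all 17 were tested and 0 were called, where 0.015% of all genes were called. The median log2 fold change was -0.18 against 0 over all genes. Mylk4 at -0.86 (SE 0.32), Rock2 at -0.34 (SE 0.15) and Rock1 at -0.36 (SE 0.16) had the smallest p. Between the wild-type tissues 13 were higher and 2 lower in the aorta. Over all genes tested, 40.4% were higher and 35.4% lower. Genes near 0 in B1b cells, such as Ppp1r14a, Mylk2 and Mylk3, entered through the aortas, so the filter fixed their direction. Mylk, the smooth muscle light chain kinase, stood at 1130 CPM in wild-type aortas and 2.56 CPM in wild-type B1b cells (log2 fold change 8.78, SE 0.51, adjusted p = 2.09e-08, edgeR). Mprip, which tethers the phosphatase to actin, was at 417 CPM in wild-type aortas and 111 CPM in wild-type B1b cells (1.88, SE 0.14, adjusted p = 8.1e-08, edgeR). Ppp1r14a, a phosphatase inhibitor, was at 74.7 CPM in wild-type aortas and 0.0436 CPM in wild-type B1b cells, and Mylk2 at 8.75 CPM in wild-type aortas and 0 CPM in wild-type B1b cells. The other genes higher in aorta were Mylk3, Mylk4, Ppp1cb, Ppp1r12a, Ppp1r12b, Ppp1r12c, Rock1, Calm2 and Calm3, by 0.53 to 7.22 on the log2 scale. Rhoa was lower in aorta, at 195 CPM in wild-type aortas and 279 CPM in wild-type B1b cells (-0.55, SE 0.11, adjusted p = 0.000575, edgeR).

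Of 13 heavy chain genes, 2 were tested in B1b cells and 8 in aortas, and 0 were called between the genotypes in either. The shares called over all genes were 0.707% in B1b cells and 0.015% in aortas (edgeR). Myh9 at -0.19 (SE 0.07) and Myh11 at 0.03 (SE 0.51) were the pair tested in B1b cells, and in aortas Myh4 at 5.79 (SE 1.62; 3.57, SE 0.98, without cre replicate 1), Myh14 at 0.87 (SE 0.40) and Myh9 at -0.25 (SE 0.14) had the smallest p. Between the wild-type tissues, 6 of 7 were higher in aorta and 1 lower. Over all genes tested, 40.4% were higher and 35.4% lower. Only Myh9 and Myh11 had enough counts in B1b cells, so the filter fixed the direction of the others. Myh11, the smooth muscle heavy chain that Myl9 and Myl6 bind, stood at 3689 CPM in wild-type aortas and 2.16 CPM in wild-type B1b cells (log2 fold change 10.70, SE 0.36, adjusted p = 6.53e-11, edgeR). Myh9, the nonmuscle heavy chain, was lower in aorta, at 790.5 CPM in wild-type aortas and 1719 CPM in wild-type B1b cells (-1.15, SE 0.13, adjusted p = 5.81e-06, edgeR). The heart muscle heavy chain gene Myh6 was 10.96 higher on the log2 scale (SE 0.88, edgeR). Myh10, Myh7, Myh14 and Myh7b were higher by 9.40, 5.66, 3.20 and 2.80.

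Of 15 transcription factor genes of muscle, 8 were tested in B1b cells and 12 in aortas, and 0 were called between the genotypes. The shares called over all genes were 0.707% in B1b cells and 0.015% in aortas (edgeR). In aortas Tbx5, a heart factor, stood at 19.1 CPM in cre and 5.62 CPM in wild type (log2 fold change 1.69, SE 0.49) and Nkx2-5 at 7.08 CPM in cre and 2.85 CPM in wild type (1.32, SE 0.50). Tead1 was at -0.52 (SE 0.20), and none of these passed. In B1b cells Srf, the gene of serum response factor, was at -0.24 (SE 0.10), Mef2a at 0.17 (SE 0.08) and Mef2c at -0.15 (SE 0.08). Between the wild-type tissues 7 were higher in aorta and 3 lower. Over all genes tested, 40.4% were higher and 35.4% lower. Genes near 0 in B1b cells, such as Gata6 and Nkx2-5, entered through the aortas, so the filter fixed their direction. Myocd, which encodes the smooth muscle co-factor of serum response factor, was 5.23 higher on the log2 scale (SE 0.48, adjusted p = 1.36e-06, edgeR). Gata6, Tead1, Gata4, Tbx5 and Mef2a were higher by 7.19, 6.03, 3.67, 2.51 and 0.71, and Nkx2-5 had no count in wild-type B1b cells. Mrtfa, Mef2d and Mef2c were lower in aorta by -1.75, -1.52 and -1.20 (adjusted p = 5.18e-08, 5.63e-08 and 1.42e-05, edgeR).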

How the data were processed

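RNA was sequenced from 16 mouse samples. Per the labels' protocols, B1b cells were sorted, aortas were snap frozen, RNA was extracted with TRIzol and libraries used a KAPA mRNA kit. The submitters' processing notes name CASAVA 1.8.2, STAR 2.5.2b and mm10. The authors deposited raw read counts per RefSeq transcript, not normalized, in 1 column per sample. No source used here names the counting tool, annotation or strand setting. Columns were matched to samples by title.

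Of 35745 transcripts, 35440 took a gene name from RefSeq, 188 from GENCODE and 117 none; the last held 0.24% to 2.5% of a library's counts and stayed in. The row of highest total was kept for each gene. Each comparison was fitted with edgeR 4.0.16 in R 4.3.3 (TMM, filterByExpr, robust quasi-likelihood), with Benjamini-Hochberg adjustment over all genes tested and a threshold of 0.05. DESeq2 1.42.0 and limma 3.58.1 (voom) were alternatives. CPM per kb used GENCODE transcript lengths. Intervals are 95%. Correlations used log2 CPM with a prior count of 2.

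Replicate numbers follow accession order and pair nothing. Replicate pairs differed beyond counting noise (chi-square per degree of freedom 5.43 to 47.8), so no library was counted as a repeat. On simulated counts, 51% of genes changed 1.5-fold, 75.5% changed 2-fold and 93.8% changed 4-fold were recovered in the B1b comparison. The shares were 2%, 53.1% and 98% in the aortic comparison and 12.8%, 59.2% and 92% in the tissue comparison. Simulated counts were drawn for each gene separately, and the genes to change were picked at random. Variation that real aortas share across genes is therefore missing from them. In the real aortic comparison Myl7 and Myl4 were not called, at log2 fold changes of 3.44 and 3.24. The shares thus do not say how often genes as variable as the members are found.

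The members, lists and naming rule were chosen with earlier results of these data known. The rule names the 10 members, Myl10 (3 counts in all, not tested) and Myl12b, called genes or those of smallest p in 3 lists, and the 5 genes most like Myl7, Myl2, Mylpf and Myl9. A gene that the rule takes in is not reported here, though it stays in the counts.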

Additional observations from a re-analysis of the deposited data

Results flagged for a closer look

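Of 20 groups of aortic values, 10 members in each genotype, 2 held a library far from the others by Dixon's criterion, and chance flags about 1 in 20 groups.

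Mylpf, the fast skeletal regulatory chain gene, stood at 52.1 CPM in replicate 1 of the cre aortas, against 7.65 CPM in the next highest and 1.78 CPM in the lowest cre aorta. The gap to the next library was 0.883 of the range of the group.

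Myl9, the smooth muscle regulatory chain gene, stood at 3160 CPM in replicate 3 of the cre aortas, against 1537 CPM in the next highest and 1256 CPM in the lowest cre aorta. The gap was 0.852 of the range. The summed level of the 11 smooth muscle markers was also highest there, at 26470 CPM, against 10560 to 15170 CPM in the other cre aortas.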

How the results depend on the processing

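No light chain value changed direction among those called. Between the wild-type tissues, 9 members were called with each library left out in turn and 8 under limma-voom, where Myl3 missed (adjusted p = 0.0597). In the cre libraries the same 9 were higher in aorta, and Mylpf stood at 2.67 (adjusted p = 0.0574, edgeR), against -1.0 in wild type. Of the members called, only Myl6 and Myl12a had enough counts in B1b cells. The filter fixed the direction of the others, so these counts are no support. Over all genes tested in wild type, 40.4% were higher and 35.4% lower in aorta. In B1b cells 0 members were called under each alternative run. Over all genes, 83 were called in the main run, where 1563 had an unadjusted p under 0.05 by edgeR. The number called was 327 with no filter on low counts, 197 with DESeq2 and 11 with transcript rows summed. It was 0 with one fit over all 4 groups and 35 to 103 with a library left out.

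In aortas 2 genes were called by edgeR, against 204 with DESeq2, 1 with limma-voom, 1 with the lowest-total row, 47 with one fit over all 4 groups and 0 to 14 with a library left out, and 0 light chain members, against 3 with DESeq2, 3 with one fit over all 4 groups and 0 to 3 with a library left out. The count of 3 with a library left out came without cre replicate 4. This comparison led to the choice of the members, so their counts are settings compared and not tests of them. Without the 2 aortas under 2000000 counts, chosen after seeing the data, 92 genes and 1 member were called. The cause was not tested.

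No paired analysis was possible because the labels give no replicate numbers that the groups share. Depth limits Myl1, Myl2, Myl3, Myl4, Myl6b, Myl7 and Myl9 in B1b cells, where they were too low for the test.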
